A study of Mus musculus with 12 samples.

Results

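Kidneys of mice without mENT1, the equilibrative nucleoside transporter encoded by Slc29a1, were compared with kidneys of wild type mice. The members were the 3 knockout kidneys (KO kidney a, b and c) and the 3 wild type kidneys (WT kidney a, b and c), taken by their titles, which are 6 of the 12 arrays of the series. The other 6 arrays hold hearts of the same genotypes. Each RNA sample was labelled with Cy3 and hybridised alone to an Agilent mouse array. Genotype (mENT1 knockout or wild type), tissue and the FVB/N background are the labels given for each sample. The series' design names 3 mice of each genotype. Age, sex, the deleted part of the gene, the strain in which it was deleted, the number of backcrosses and the hour of collection are not given in the sources used here. All levels below are log2 signals relative to the 75th percentile of the array, and a change is the knockout mean minus the wild type mean over 3 arrays of each genotype. Its standard error (SE) comes from limma.

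ENT1 is a membrane protein that lets nucleosides such as adenosine, inosine and uridine move down their gradient into or out of cells. In the kidney it shares this task with ENT2 and with sodium-coupled concentrative transporters, and it takes part in clearing extracellular adenosine. Adenosine outside cells acts through a family of receptors that set renal blood flow, tubular transport and the activity of immune cells.

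The 75th percentile of the intensity lay between 451.2 and 798.2 on the kidney arrays, and 59.9% to 67% of probes were well above background. Of 3 slides, one held KO kidney a, one held KO kidney b and c with WT kidney a and b, and one held WT kidney c. Umod, the major protein of the thick ascending limb, lay between 6.18 and 7.02 on all 6 arrays. Slc34a1, the phosphate transporter of the proximal tubule, lay between 6.55 and 7.33. Both were saturated on every array of at least 1 genotype, so their levels there are lower bounds, and the genotypes overlapped for each.

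KO kidney a stood apart from the other kidneys and is given array by array throughout. Xist, a noncoding RNA that silences one X chromosome in female cells, was 1.21 on KO kidney a and between -8.83 and -7.97 on the other 5 arrays. Ddx3y, a gene of the Y chromosome, was -9.20 on KO kidney a and between -0.12 and 0.72 on the others. KO kidney a thus carried the signals of a female mouse and the other 5 kidneys those of males. Of 12 tested genes listed as higher in male mouse kidney, the median was -1.68 relative to the wild type mean on KO kidney a, against -0.15 and -0.07 on KO kidney b and c. Cyp2j13, a cytochrome P450 of male kidney, was -5.46 on KO kidney a and between 5.37 and 6.60 elsewhere. Of 10 tested adrenal gland genes the median was 3.26 on KO kidney a, against 0.15 and 0.04 on b and c. Star, which carries cholesterol into mitochondria for steroid synthesis, was 0.63 on KO kidney a and between -6.22 and -5.67 elsewhere. Chga, a granule protein of the adrenal medulla, was 0.13 there and between -6.87 and -4.82 elsewhere. The part that sex and adrenal RNA take in the genotype differences below was not tested, but the counts of called genes and of called immunoglobulin genes are also given without KO kidney a.

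KO kidney b and c shared another feature. Dbp, a transcription factor whose RNA cycles with the day, was 2.07 and 2.15 on KO kidney b and c. It was 6.09 on KO kidney a and between 6.08 and 6.80 on the wild type kidneys. Per2, a repressor of the clock, was -4.16 and -3.46 on KO kidney b and c and between -1.07 and -0.15 on the other 4 arrays. Ciart, another clock repressor, was -9.03 and -8.93 on KO kidney b and c and between -3.46 and -2.92 on the others. Arntl, which encodes the activator BMAL1, moved the other way, at 1.0 and 1.30 on KO kidney b and c and between -2.47 and -1.49 on the others. KO kidney a therefore grouped with the wild type kidneys for these 4 genes. Cry1, a clock repressor, was the one clock gene of 23 tested with an adjusted p under 0.10 (change 1.30, SE 0.21, adjusted p = 0.0738, limma), with KO kidneys at -4.01, -4.10 and -3.88 and wild type kidneys at -4.94, -5.60 and -5.34. Nfil3, a repressor that opposes Dbp, was -0.16, 1.25 and 1.51 on the knockout kidneys and -1.82, -1.22 and -1.92 on the wild type kidneys (change 2.52, SE 0.46, adjusted p = 0.101). Whether the genotypes were collected at the same hour was not tested.

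**Figure D1:**
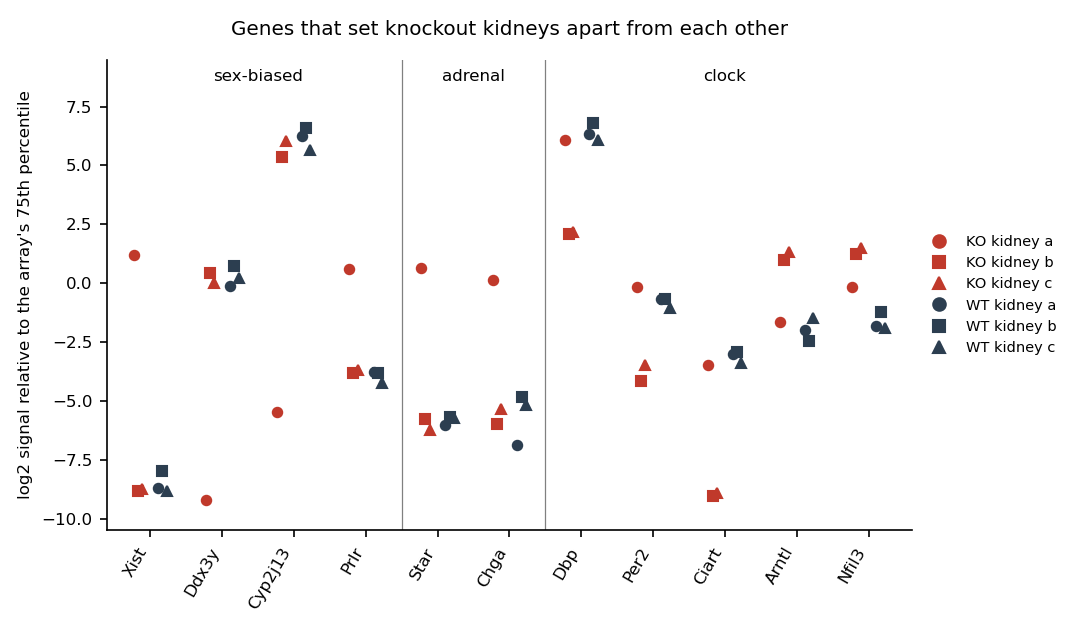
Log2 signal relative to the 75th percentile of the array (vertical axis) for 11 genes (horizontal axis). Each point is 1 array, red for knockout and dark blue for wild type, with the shape giving the letter. KO kidney a is alone for the sex-biased and adrenal genes (Star 0.63 against -5.67 or less elsewhere), and KO kidney b and c are alone for Dbp, Per2, Ciart and Arntl.

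Of 17228 genes tested, 28 were called at an adjusted p under 0.05, which is 0.163% (limma, Benjamini-Hochberg). Of these, 5 were higher in the knockout kidneys (0.029% of genes tested) and 23 were lower (0.134%). At an adjusted p under 0.10 there were 163 genes (0.946%), 41 higher and 122 lower. At an unadjusted p under 0.05 there were 2263 of the 17228, the background for the unadjusted counts given per list below. The 3 knockout values lay all above or all below the 3 wild type values for 3699 genes (21.5%), higher for 1514 (8.79%) and lower for 2185 (12.7%). The median change over all genes was -0.07. The count of calls depended on single arrays: without KO kidney a it was 121, without KO kidney b 5 and without KO kidney c 87, while without WT kidney a, b or c it was 1, 2 and 1. Within the slide that held KO kidney b and c with WT kidney a and b, 289 genes were called, 145 higher and 144 lower, and all 28 were among them. The groups did not overlap for any of the 28 genes, so the sign of their change could not turn in these fits. The 28 genes fell into 3 groups. Slc29a1 and 9 others lay on chromosome 17, 13 were immunoglobulin transcripts or probes within an immunoglobulin locus, and 5 lay elsewhere or had no position.

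Slc29a1 itself was -1.43, -1.30 and -1.43 on KO kidney a, b and c and 1.51, 1.27 and 1.62 on WT kidney a, b and c. All 3 knockout arrays were lower than all 3 wild type arrays. The change was -2.85 (SE 0.16, adjusted p = 0.00547, limma), which is 7.21-fold lower. The call was lost without WT kidney a (adjusted p = 0.0712) and without WT kidney c (adjusted p = 0.07), and held without any one of the other 4 arrays. The remaining signal was well above background on all 3 knockout arrays. The probe lies at chr17:43714823-43714882 (mm7, minus strand). Its 60 bases hold a stop codon in all 3 reading frames, so it is not wholly within coding sequence. Whether it lies inside the deleted part is not given in the sources used here. The signal shows only that the arrays differ in the direction of their labels, and its relation to the deletion was not tested.

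None of the other 3 nucleoside transporters tested was called (limma), and 0 of the 3 had an unadjusted p under 0.05. Slc29a2, which encodes ENT2, was -1.70, -1.96 and -1.93 in knockout and -2.29, -1.93 and -2.28 in wild type kidneys (change 0.30, SE 0.18, adjusted p = 0.516). Slc29a3, the transporter of lysosomes and mitochondria, was -1.51, -0.47 and -0.35 against -1.42, -1.88 and -0.90 (change 0.62, SE 0.38, adjusted p = 0.543). Slc28a2, which encodes the concentrative transporter CNT2, was -4.36, -4.50 and -5.42 against -4.03, -4.60 and -3.70 (change -0.65, SE 0.35, adjusted p = 0.494). The groups overlapped for all 3 genes. Of the adenosine receptors, Adora1, Adora2a and Adora2b were tested, with changes of 0.26 (SE 0.25), -0.07 (SE 0.18) and 0.26 (SE 0.23), and none passed the test (adjusted p = 0.686, 0.894 and 0.657). Adora1 was 0.54 on KO kidney a and between -0.37 and -0.15 on the other 5 arrays, and without KO kidney a its change was -0.01.

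Of 28 genes of adenosine and purine metabolism tested, 13 were higher, 15 lower and 0 called (3 at an unadjusted p under 0.05, limma), with a median change of -0.0039 (0.01 with quantile scaling and 0.04 with median scaling). Uox, urate oxidase, an enzyme of liver, was -3.34, -4.09 and -5.74 on the knockout kidneys and between -7.29 and -6.96 on the wild type kidneys (change 2.73, SE 0.57, adjusted p = 0.126). Apoa1, the main protein of high density lipoprotein and also a liver gene, was -4.82, -4.48 and -5.95 against -7.73, -7.92 and -8.08 (change 2.83, SE 0.38, adjusted p = 0.0579). Both were not well above background on any wild type array, so Uox was at least 4.54-fold and Apoa1 at least 2.81-fold higher. The list of liver and pancreas genes had 12 tested members with medians of 1.68, 0.85 and 0.36 on KO kidney a, b and c, and its part in these differences was not tested. Of 23 receptors and enzymes of extracellular nucleotides, 8 were higher and 15 lower, 0 were called (6 at an unadjusted p under 0.05), and the median change was -0.26. P2rx7, a channel opened by ATP that is found on macrophages, was -1.92, -2.09 and -1.87 against -1.22, -0.91 and -0.99 (change -0.92, SE 0.16, adjusted p = 0.0925).

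The calls on chromosome 17 were concentrated in one stretch. Besides Slc29a1, 9 genes were called on this chromosome, and all 9 lay between 9.44 and 12.56 Mb before the Slc29a1 probe on mm7. Of the 225 genes tested in the window from 15 to 5 Mb before it, 9 (4%) were called, against 0.163% of all genes. An adjusted p under 0.10 was found for 19 (0.946% of all genes), and 85 (37.8%) had groups that did not overlap (21.5% of all genes). In the 5 Mb on each side of Slc29a1, 0 of 29 and 0 of 77 genes were called, and 7 and 19 had groups that did not overlap. From 5 to 15 Mb after it, 0 of 70 were called, and 22 (31.4%) had groups that did not overlap. The window with the calls holds the major histocompatibility complex (MHC), whose genes encode the proteins that present peptides to T cells. None of the 10 called genes of chromosome 17 changed differently in kidney and heart by the test of the difference, and all but Lta, 9 of the 10, had the same sign in heart.

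**Figure D2:**
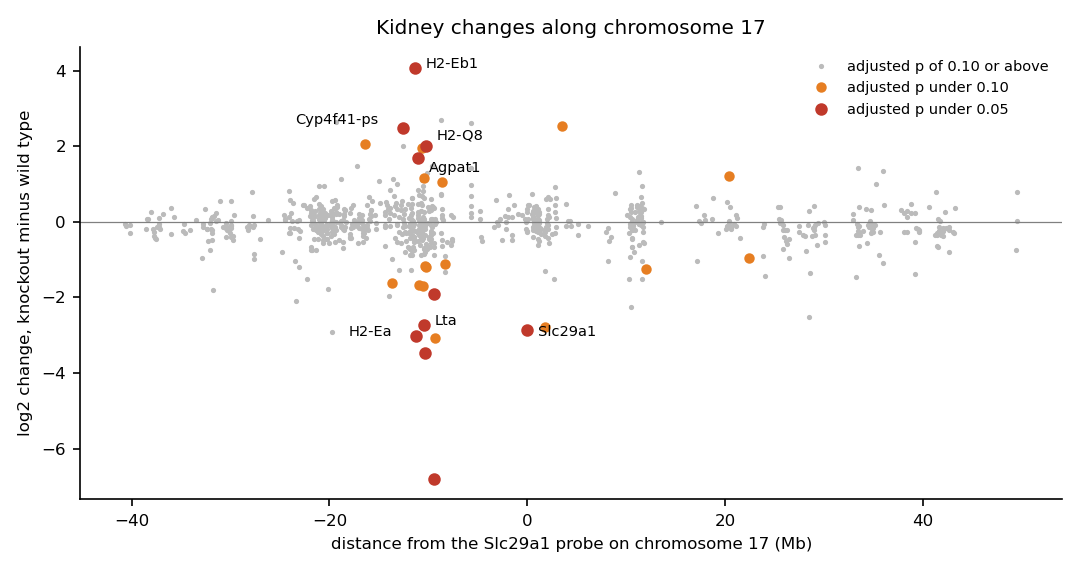
Change on the log2 scale, knockout minus wild type (vertical axis), against the distance of each tested gene of chromosome 17 from the Slc29a1 probe in Mb on mm7 (horizontal axis). Red points have an adjusted p under 0.05 and orange points one under 0.10. The 9 called genes other than Slc29a1 sit between 9.44 and 12.56 Mb before it, on both sides of 0.

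Called MHC class II genes changed in both directions. H2-Eb1, the beta chain of the E molecule, was 1.22, 2.09 and 1.99 on the knockout kidneys and -2.46, -2.14 and -2.35 on the wild type kidneys. It rose by 4.08 (SE 0.26, adjusted p = 0.00895, limma), or 17-fold, the largest rise among the genes called. H2-Aa, the alpha chain of the A molecule, was -0.59, -0.16 and -0.23 against 1.87, 2.01 and 1.92. It fell by 2.26 (SE 0.17, adjusted p = 0.0169), and its other tested probe had the same sign. H2-Ea, the alpha chain of the E molecule, was -8.84, -8.64 and -8.39 against -5.99, -5.35 and -5.49. Its probe was not well above background on any knockout array, so it was at least 2.58-fold lower (the mean of the wild type arrays against the lowest signal well above background on each knockout array). Each of these 3 genes had knockout values on one side of all wild type values, though H2-Ea was tested only through the wild type arrays, where it is higher. The probes are shown because genes of this complex differ in sequence between mouse strains, and a probe reports only the letters it holds.
H2-Eb1: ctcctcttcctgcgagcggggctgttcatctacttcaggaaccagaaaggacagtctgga
H2-Aa: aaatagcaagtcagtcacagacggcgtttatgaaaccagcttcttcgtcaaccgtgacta
H2-Ea: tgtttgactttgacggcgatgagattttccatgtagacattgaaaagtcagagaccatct
Each is 60 bases, 5′ to 3′, as deposited. Each has at least 1 reading frame without a stop codon. The H2-Eb1 probe spans 462 bases of chromosome 17 (chr17:32392430-32392891, plus strand) and so joins more than 1 exon, and the H2-Ea probe lies at chr17:32421735-32421794 on the minus strand. The files give no position for the H2-Aa probe. Whether the sequences of the knockout and wild type mice differ under these probes was not tested.

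H2-Ab1, the partner of H2-Aa, was 2.79, 3.90 and 3.88 against 3.60, 3.97 and 3.76 (change -0.25, SE 0.32, adjusted p = 0.766), and without KO kidney a its change was 0.12. Of 10 class II genes tested, 1 was called higher, 2 were called lower, and the groups did not overlap for 7 (70%, against 21.5% of all genes). Their median change was -0.47. Of 25 genes of class I presentation and antigen processing, 6 were higher and 19 lower, with a median of -0.41. The groups did not overlap for 4 in the higher direction (8.79% of all genes) and 14 in the lower (12.7% of all genes). H2-Q8, a class I gene, was 0.44, 0.56 and 0.43 against -1.72, -1.34 and -1.55, and rose by 2.02 (SE 0.16, adjusted p = 0.0197), or 4.05-fold. H2-D1, one of the classical class I molecules, was 4.55, 4.84 and 4.92 against 5.99, 5.91 and 5.93 (change -1.17, SE 0.16, adjusted p = 0.0579). H2-Q7, a close relative of H2-Q8, was 4.25, 4.27 and 4.36 against 5.60, 5.29 and 5.59 (change -1.20, SE 0.16, adjusted p = 0.0577). Both were lower on every knockout array than on any wild type array. H2-T3, a nonclassical class I gene, was -9.29, -7.59 and -8.54 against -5.65, -5.55 and -4.99 (change -3.08, SE 0.43, adjusted p = 0.0583). Its probe was not well above background on any knockout array, which makes it at least 2.98-fold lower. The class I genes have near-identical copies, so a probe may read more than 1 of them.

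Genes of the same stretch with other functions were called too. Agpat1, an enzyme that makes phosphatidic acid, was 0.36, 0.59 and 0.69 against -1.22, -1.13 and -1.10, and rose by 1.70 (SE 0.16, adjusted p = 0.0356), or 3.25-fold. Lta, lymphotoxin alpha, a cytokine of lymphocytes, was -7.59, -6.67 and -6.78 against -4.52, -3.89 and -4.47. It was not well above background on any knockout array and was at least 5.99-fold lower (adjusted p = 0.0468). The pseudogene Cyp4f41-ps was -4.43, -4.44 and -4.76 on the knockout kidneys and between -7.55 and -6.55, not well above background, on the wild type kidneys, at least 4.09-fold higher (adjusted p = 0.0468). The probe 5430410E06Rik, which has no symbol, fell by 3.46 (SE 0.41, adjusted p = 0.0491). The probe NAP000023-001 fell by 1.90 (SE 0.19, adjusted p = 0.0456). For all of these the groups did not overlap. Lta and Cyp4f41-ps were tested only through the genotype in which they are higher, so for them the filter favours such a difference. Apom, an apolipoprotein made in liver and kidney, was 5.41, 5.26 and 5.5 against 4.17, 4.57 and 3.92 (change 1.17, SE 0.20, adjusted p = 0.0925). Beyond Slc29a1, at 3.52 Mb from it, Lrfn2, a synaptic adhesion protein, was -4.55, -4.35 and -4.48 against -7.04, -7.81 and -6.18 (change 2.55, SE 0.39, adjusted p = 0.0681). Guca1a, an activator of retinal guanylate cyclase that lies at 1.82 Mb, had a change of -2.79 (SE 0.40, adjusted p = 0.0606). Whether alleles of the strain in which Slc29a1 was deleted remain around it was not tested.

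**Figure D3:**
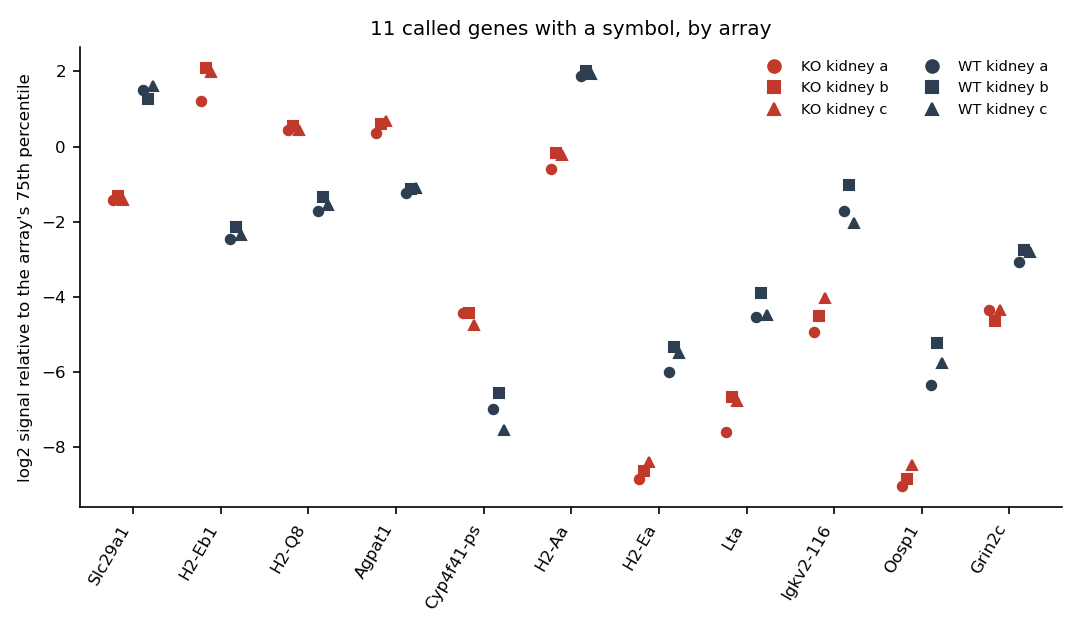
Log2 signal relative to the 75th percentile of the array (vertical axis) for 11 of the called genes with a symbol (horizontal axis). Each point is 1 array, red for knockout and dark blue for wild type, with the shape giving the letter. For every gene shown the knockout points lie all above or all below the wild type points, as for H2-Eb1 at 1.22 or above against -2.14 or below.

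Immunoglobulin transcripts formed the largest group of calls. Plasma cells, which mature from B cells, secrete antibodies and hold large amounts of RNA for the heavy and light chains, joined from variable, joining and constant segments. A total of 74 tested genes were described in the files as immunoglobulin, a set gathered after their values were seen and given here without a test of its own. Of these, 73 were lower in the knockout kidneys, 8 were called lower (0.134% of all genes were), 33 had an adjusted p under 0.10 (0.946% of all genes), and 65 had groups that did not overlap, all lower (12.7% of all genes). The median change was -2.44, and the medians relative to the wild type mean were -3.10, -2.51 and -1.60 on KO kidney a, b and c and between -0.22 and 0.15 on the wild type kidneys. KO kidney c was thus nearest to the wild type kidneys. The 35 heavy chain genes had a median change of -2.44 and the 37 kappa light chain genes one of -2.51, while the 2 lambda genes tested had groups that overlapped (median -1.10). On KO kidney a, b and c the lambda medians relative to the wild type mean were -2.44, -2.28 and 1.43. On the wild type kidneys they were between -0.37 and 0.72. Without KO kidney a 23 of the 74 genes were called, without KO kidney c 34, and without KO kidney b or any one of the wild type kidneys 0. Within the shared slide 34 were called. In bulk tissue, fewer cells of a type and less RNA per cell cannot be told apart.

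Probes without an immunoglobulin description that lie between the described ones were also mostly lower. They are set apart by the description alone, and some may read immunoglobulin transcripts: Igk-V1, a kappa variable gene by its name, is among them. On chromosome 6, from 67542113 to 70722138 (mm7), 18 such genes were tested, of which 16 were lower and 4 were called lower. On chromosome 12, from 110781031 to 113737818 (mm7), 12 were tested, of which 11 were lower and 1 was called lower. Of all 17228 genes tested, 10078 were lower and 0.134% were called lower. Most of the called probes have no gene symbol, so the sequences of 4 of them with a shared run of letters are shown. They hold the letters TATTACTG, in capitals, which in frame give the tyrosine, tyrosine and first bases of the cysteine codon at the end of the framework of a variable segment.
Igkv2-116: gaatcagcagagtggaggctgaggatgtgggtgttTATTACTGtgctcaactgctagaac
NAP100137-001: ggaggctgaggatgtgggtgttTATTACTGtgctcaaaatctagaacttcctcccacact
ENSMUST00000032040: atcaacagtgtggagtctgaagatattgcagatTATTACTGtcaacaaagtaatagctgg
AB069910: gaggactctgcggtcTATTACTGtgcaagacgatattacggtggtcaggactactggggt
The first 3 lie in the kappa locus, at chr6:68128606-68128665 and chr6:68279160-68279219 on the plus strand and chr6:69744578-69744637 on the minus strand, and AB069910 lies in the heavy chain locus at chr12:112641140-112641199 on the minus strand (all mm7). The letters TATTACTG were found in 17 of the 74 immunoglobulin probes (23%), in 4 of the 30 other probes of the loci (13.3%) and in 48 of the 17228 probes of all tested genes (0.279%). On the other strand they were found in 9 of the 17228 and in 0 of the 74. Probes of related variable segments share letters, so one transcript may bind several of them. The 74 genes and the 30 others of the loci are thus not independent, within or between the sets.

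The levels of these probes were as follows. AB069910, a heavy chain sequence, was -4.52, -4.23 and -3.78 on KO kidney a, b and c and -1.78, -1.55 and -1.38 on WT kidney a, b and c. It fell by 2.61 (SE 0.23, adjusted p = 0.032), or 6.11-fold. Igkv2-116, a kappa variable segment, was -4.92, -4.52 and -4.03 against -1.72, -1.03 and -2.02, and fell by 2.90 (SE 0.33, adjusted p = 0.0482). For both, all knockout arrays were below all wild type arrays, with KO kidney c the highest of the knockout arrays. NAP100137-001 fell by 2.94 (SE 0.34, adjusted p = 0.0491). ENSMUST00000032040 fell by 2.87 (SE 0.34, adjusted p = 0.0491). The other called immunoglobulin or locus probes, AY895789, AF210281, ENSMUST00000084862, L18942, BC108385, NAP095777-001 and BF578595, fell by 1.99 to 2.93, with ENSMUST00000084862 and L18942 well above background on 2 of the 3 knockout arrays. NAP113251-1 and LOC629893 were not well above background on any knockout array and were at least 6.36-fold and 4.84-fold lower. AF240166, for which the files give no position and no immunoglobulin description, was -6.65, -6.71 and -5.36 against -3.16, -3.19 and -2.98 and fell by 3.13 (SE 0.37, adjusted p = 0.0491). Ighg1, a gamma constant region of secreted antibodies, was -1.24, -1.81 and -0.46 against -0.23, 3.04 and 0.64 (change -2.32, SE 0.82, adjusted p = 0.301). The probe named Ighg in the files lies apart from it, at chr12:111380688-111380747 (mm7), and was -2.83, -2.65 and -1.55 against 0.94, -0.59 and 0.12 (change -2.50, SE 0.48, adjusted p = 0.113). Ighm, of the mu constant region that naive B cells also express, was -0.27, 0.71 and 0.60 against 0.74, 1.15 and 1.0 (change -0.61, SE 0.29, adjusted p = 0.434). None of these 3 passed the test.

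**Figure D4:**
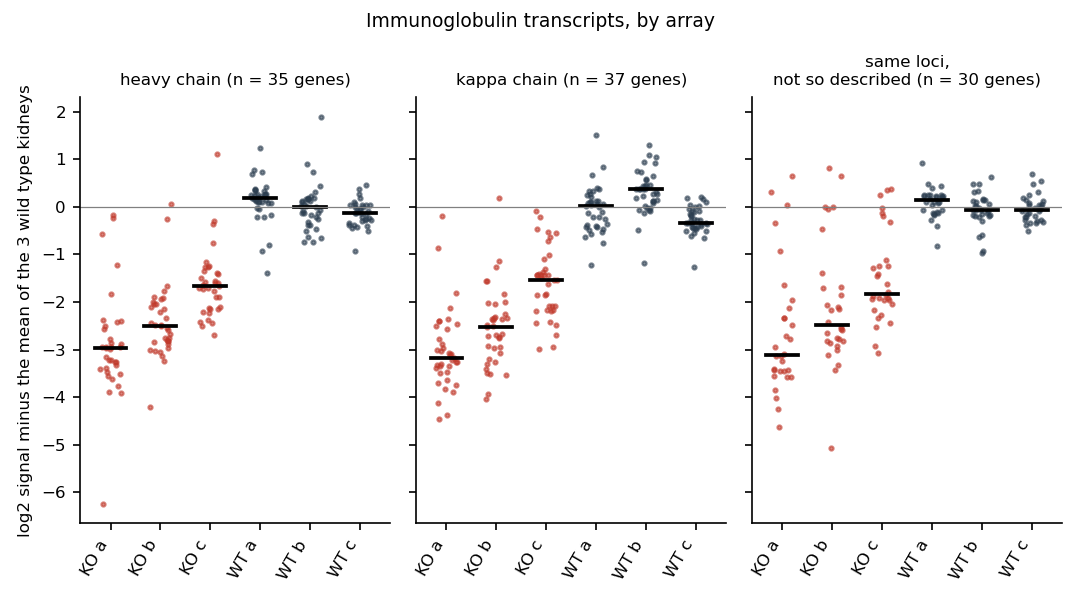
Log2 signal minus the mean of the 3 wild type kidneys (vertical axis) for each gene (point) on each array (horizontal axis), for 35 heavy chain genes, 37 kappa chain genes and 30 genes between their probes that are not so described. Black bars are medians. The knockout medians lie below all wild type medians in each panel, with KO kidney a lowest and KO kidney c nearest to wild type.

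Genes of plasma cells, chosen after their values were seen, lay the same way. Jchain, which joins antibody units, was -0.79, 0.36 and 1.46 on the knockout kidneys and 3.42, 3.81 and 3.12 on the wild type kidneys (change -3.11, SE 0.54, adjusted p = 0.0922). Mzb1, a chaperone of antibody assembly, was -2.81, -2.67 and -1.74 against -0.59, -0.27 and -0.95 (change -1.80, SE 0.33, adjusted p = 0.102). Pou2af1, a coactivator of immunoglobulin genes, was -3.39, -2.66 and -2.42 against -0.65, -0.26 and -0.94 (change -2.21, SE 0.30, adjusted p = 0.0579). Tnfrsf13b and Tnfrsf17, receptors through which plasma cells receive survival signals, had changes of -1.30 (SE 0.18, adjusted p = 0.0579) and -1.73 (SE 0.33, adjusted p = 0.113). The groups did not overlap for any of these 5 genes. Of genes of the B cell surface, Cd79b was -1.39, -0.81 and -1.11 against -0.82, -0.27 and -0.75, with groups that overlapped by 1 array (change -0.49, SE 0.23, adjusted p = 0.431). Ms4a1 was -5.26, -3.66 and -4.53 against -4.95, -4.45 and -4.15.

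The immunoglobulin genes went the other way in the hearts of the same genotypes. KO heart a and b had Xist (1.71 and 1.69) and lacked Ddx3y (-9.11 and -8.94), while KO heart c and the 3 wild type hearts had Xist at -8.27 or less and Ddx3y between 0.70 and 0.84. By these signals more knockout hearts than knockout kidneys were from females, so as labelled they cannot all come from the same 3 mice. Liver genes were higher on all 3 knockout hearts: Alb, serum albumin, was 0.31, 0.46 and 1.34 there and -2.13, -2.85 and -3.62 on the wild type hearts. Of 12 liver and pancreas genes, 10 were higher in knockout heart, with a median change of 2.79. Of the 104 genes of the immunoglobulin set and its loci, 96 were tested in both tissues, and 94 of these were higher in knockout than in wild type heart, with a median change of 2.78. Their medians relative to the wild type heart mean were 3.81, 2.68 and 1.81 on KO heart a, b and c and 1.13, -0.64 and -0.57 on WT heart a, b and c. Every listed lymphocyte gene was also higher in knockout heart, with changes of 8.03 for Dntt, 5.37 for Cd8a and 4.26 for Lck. The part that sex, liver RNA and lymphocyte RNA take in this was not tested. The 3 knockout hearts lay on 1 slide and the 3 wild type hearts on another, so genotype and slide cannot be told apart in heart. The test of the kidney effect minus the heart effect, fitted on all 12 arrays, called 109 of 16167 genes (0.674%), and 40 of the 96 were among them. AB069910 changed by -2.61 in kidney and 4.07 in heart (difference -6.68, adjusted p = 0.0015). Across the 28 genes called in kidney, 26 were tested in both tissues and 11 differed between them, 7 of these described as immunoglobulin and 2 within an immunoglobulin locus.

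Of the 5 called genes elsewhere or without a position, H2-Aa and AF240166 are given above. Grin2c, which encodes part of the NMDA type of glutamate receptor, was -4.35, -4.64 and -4.34 against -3.08, -2.75 and -2.80 and fell by 1.56 (SE 0.17, adjusted p = 0.0468). Oosp1, named for oocytes, was not well above background on any knockout array (-9.04, -8.84 and -8.49 against -6.34, -5.22 and -5.76) and was at least 2.30-fold lower (adjusted p = 0.0461). The probe A_52_P981179 on chromosome 18, which has no gene symbol, was -3.32, -3.18 and -3.13 against -4.57, -4.63 and -4.49 and rose by 1.36 (SE 0.15, adjusted p = 0.0468). For these 3 the groups did not overlap, though Oosp1 was tested only through the wild type arrays, where it is higher.

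Most members of the immune lists were lower in the knockout kidneys, with few called. Of 29 genes of macrophages and neutrophils, 26 were lower and 3 higher, 19 had groups that did not overlap in the lower direction, and 0 were called (17 at an unadjusted p under 0.05, limma). Of all genes, 12.7% were lower without overlap. The median change was -0.70, with medians of -0.99, -0.54 and -0.65 on KO kidney a, b and c and between -0.11 and 0.21 on the wild type kidneys. Adgre1, an adhesion receptor that marks macrophages, was -1.37, -1.77 and -1.65 against -0.36, -0.04 and -0.63 (change -1.26, SE 0.21, adjusted p = 0.0831). Mrc1, the mannose receptor of macrophages, was -3.30, -3.21 and -3.36 against -2.31, -1.81 and -2.28 (change -1.16, SE 0.19, adjusted p = 0.0766). All knockout arrays were below all wild type arrays for both genes. Csf1r, the receptor for the growth factor of macrophages, was an exception at 1.83, 1.39 and 1.49 against 1.22, 1.12 and 1.27 (change 0.37, SE 0.17, adjusted p = 0.437). The direction was thus not shared by every macrophage gene.

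Of 25 lymphocyte genes, 22 were lower, 1 (Lta) was called, and 14 did not overlap in the lower direction, with a median of -0.61. The share of all genes that were lower without overlap, 12.7%, is the background for each list of this paragraph. All 32 genes of the list of chemokines, cytokines and adhesion molecules were lower, 18 without overlap, with a median of -0.58, and 0 were called (13 at an unadjusted p under 0.05). Ccl5, a chemokine that draws T cells, was -1.34, -0.42 and -0.61 against 1.28, 0.77 and 1.0 (change -1.81, SE 0.28, adjusted p = 0.0681). Of 31 genes of complement and coagulation, 23 were lower and 14 did not overlap in that direction, with a median of -0.42 and 0 called (14 at an unadjusted p under 0.05). C4b, a complement component encoded in the MHC, was -0.78, -0.12 and 0.26 against 1.51, 1.61 and 1.23 (change -1.67, SE 0.29, adjusted p = 0.088). For Ccl5 and C4b the knockout arrays were all below the wild type arrays. The interferon response list had 21 of 34 lower, 10 without overlap in that direction and a median of -0.16.

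Of all lists other than X inactivation and the Y chromosome, the cell cycle list had the lowest median. Of 34 genes tested, 32 were lower, 25 did not overlap in the lower direction (12.7% of all genes did) and 0 were called (25 at an unadjusted p under 0.05), and the median was -0.79. The medians were -0.81, -0.64 and -0.88 on KO kidney a, b and c and -0.23, 0.32 and -0.06 on WT kidney a, b and c. Ccnb2, cyclin B2, which drives entry into mitosis, was -2.43, -2.13 and -2.29 against -1.19, -0.38 and -0.96 (change -1.44, SE 0.24, adjusted p = 0.0831). Of 40 genes of the extracellular matrix, 30 were lower and 16 did not overlap in that direction (again against 12.7%), with a median of -0.28 and 0 called (12 at an unadjusted p under 0.05), but the median on KO kidney a was -0.02 against -0.41 and -0.43 on KO kidney b and c. Col1a1, a chain of type I collagen, was -0.20, -0.64 and -0.79 against 0.60, 0.59 and 1.08 (change -1.30, SE 0.23, adjusted p = 0.0962). Col3a1, the chain of type III collagen, was 1.66, 1.30 and 0.81 against 2.14, 2.33 and 2.59 (change -1.10, SE 0.25, adjusted p = 0.143). For both collagen genes the groups did not overlap. The medians of the immune, cell division and matrix lists kept their sign under quantile scaling, median scaling and the other background correction.

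**Figure D5:**
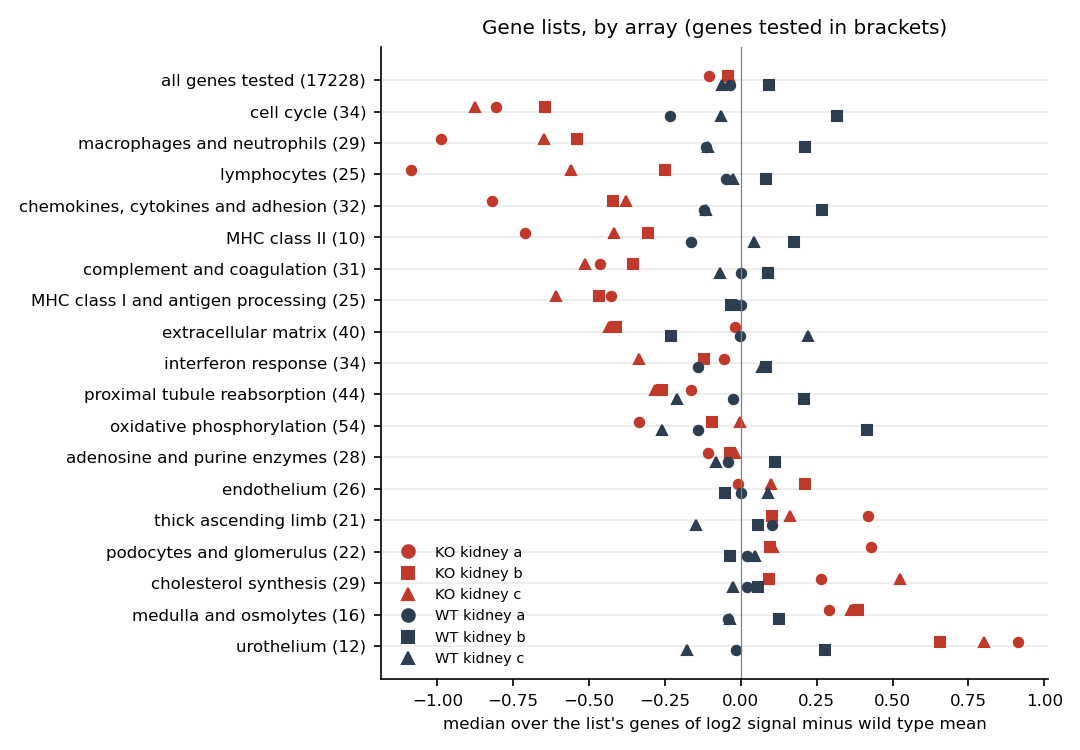
Median over the tested genes of each list (number in brackets) of log2 signal minus the wild type mean (horizontal axis), by list (vertical axis). Each point is 1 array, red for knockout and dark blue for wild type, with the shape giving the letter. The knockout points of the cell cycle list (-0.88 to -0.64) lie below its wild type points (-0.23 to 0.32), those of the urothelium list (0.66 to 0.91) lie above (-0.18 to 0.28), and those of the oxidative phosphorylation list overlap.

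Genes of the lining of the urinary tract were mostly higher in the knockout kidneys and those of the nephron segments lay in both directions, with 0 members of these lists called (limma). Of 12 urothelium genes, 11 were higher and 8 did not overlap in the higher direction (8.79% of all genes did), 8 had an unadjusted p under 0.05, with a median of 0.91 and medians of 0.91, 0.66 and 0.80 on KO kidney a, b and c. Upk3a, a uroplakin that coats the urothelium, was 0.98, 0.81 and 0.86 against 0.03, -0.13 and -0.14 (change 0.97, SE 0.15, adjusted p = 0.0681). Gsdmc, a gasdermin of epithelia, was -1.27, -1.36 and -1.62 against -2.45, -2.35 and -2.64 (change 1.06, SE 0.17, adjusted p = 0.0744). Sprr1a, a cornified envelope protein, was -0.65, -0.16 and 0.07 against -1.58, -1.05 and -1.58 (change 1.16, SE 0.25, adjusted p = 0.133). In these 3 genes every knockout array was above every wild type array. How much renal pelvis each sample held was not tested.

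Of 22 podocyte and glomerulus genes, 15 were higher, 11 did not overlap in that direction and 9 had an unadjusted p under 0.05. The share of all genes that were higher without overlap, 8.79%, is the background for each list of this paragraph. The podocyte median was 0.24, but it was 0.43 on KO kidney a against 0.10 and 0.11 on b and c. Nphs1, the nephrin of the filtration slit, was 1.26, 0.66 and 0.73 against -0.07, -0.70 and 0.05 (change 1.12, SE 0.27, adjusted p = 0.152). Of 16 genes of the medulla and its osmolytes, 11 were higher, 6 without overlap and 6 at an unadjusted p under 0.05, with a median of 0.28. Slc6a12, the betaine transporter, was 1.68, 0.99 and 1.69 against 0.32, 0.02 and 0.25 (change 1.25, SE 0.23, adjusted p = 0.108). Slc14a1, the urea transporter UT-B, was 0.58, 0.05 and 0.32 against -0.56, -0.56 and -0.49 (change 0.86, SE 0.18, adjusted p = 0.127). Of 29 genes of cholesterol synthesis, 22 were higher, 11 without overlap and 5 at an unadjusted p under 0.05, with a median of 0.26. For Nphs1, Slc6a12 and Slc14a1 the groups did not overlap, yet none had an adjusted p under 0.10.

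Of 44 proximal tubule genes, 37 were lower, 8 did not overlap in that direction (12.7% of all genes did) and 8 had an unadjusted p under 0.05, and the median was -0.21. Its wild type medians ran from -0.21 to 0.21, with WT kidney b the highest. Where a probe is saturated, its level is set by the 75th percentile of the array, which was lowest on WT kidney b (451.2). Slc34a1 and Umod, both saturated, had changes of -0.17 and -0.195. The part of saturated probes in the proximal tubule median was not tested. The list of oxidative phosphorylation had 44 of 54 members lower, 1 without overlap and 0 at an unadjusted p under 0.05. Its medians were -0.34, -0.10 and -0.0034 on the knockout kidneys and -0.14, 0.42 and -0.26 on the wild type kidneys, and the median change of -0.15 turned to 0.05 without WT kidney b and to 0.01 with quantile scaling. Of 21 thick ascending limb genes, 14 were higher, 7 did not overlap in that direction (8.79% of all genes did) and 5 had an unadjusted p under 0.05, with a median of 0.17 and 0.42 on KO kidney a. Of 29 genes of the distal convoluted tubule and of calcium or magnesium transport, 21 were lower, with a median of -0.12. Of these 29, 5 did not overlap in the lower direction (12.7% of all genes did) and 5 had an unadjusted p under 0.05. Slc12a3, the sodium chloride cotransporter of that segment, was 1.14, 0.21 and 0.15 against 2.44, 1.87 and 1.99 (change -1.60, SE 0.31, adjusted p = 0.115). Slc8a1, a sodium calcium exchanger, was -2.80, -3.70 and -4.08 against -2.43, -2.37 and -2.50 (change -1.10, SE 0.32, adjusted p = 0.229). Of 23 genes of collecting duct principal cells, 13 were higher, 7 did not overlap in that direction and 6 had an unadjusted p under 0.05, with a median of 0.07 and 0.51 on KO kidney a. Aqp2, the water channel that vasopressin regulates, was 5.36, 4.72 and 5.11 against 4.10, 3.38 and 3.84 (change 1.29, SE 0.25, adjusted p = 0.117). Aqp4, another water channel of these cells, was 1.76, 0.81 and 0.46 against -1.54, -1.22 and 0.0079 (change 1.93, SE 0.49, adjusted p = 0.179). For these 4 genes the groups did not overlap, and none passed the test. Ucp2, a mitochondrial carrier from the list of fatty acid oxidation, was 0.70, 1.08 and 1.0 against 0.02, 0.01 and -0.10 (change 0.95, SE 0.16, adjusted p = 0.0921).

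Other genes among the largest changes at an adjusted p under 0.10 had varied functions, and none of them passed the threshold. Cpne5, a calcium-dependent phospholipid-binding protein encoded on chromosome 17, was -1.24, -1.21 and -0.0073 against -3.12, -2.74 and -2.82 (change 2.07, SE 0.35, adjusted p = 0.086). Atp2b2, a calcium pump of the plasma membrane, was -2.04, -2.67 and -3.30 against -4.92, -5.02 and -4.28 (change 2.07, SE 0.36, adjusted p = 0.0917). Shisa3, a regulator of Wnt and FGF receptors, was 1.28, 0.58 and 0.25 against -1.28, -1.13 and -1.47 (change 2.0, SE 0.28, adjusted p = 0.0579). In each of these 3 genes every knockout array was above every wild type array. Cadps, which primes secretory granules for release, was at least 1.82-fold higher (adjusted p = 0.0681), and Arpp21, a phosphoprotein regulated by cyclic AMP, at least 1.34-fold higher (adjusted p = 0.0579). Both were not well above background on any wild type array. Mir124-2hg, the host transcript of a microRNA of neurons, was not well above background on any knockout array and was at least 2.48-fold lower (adjusted p = 0.06). H2-Bl, a class I gene for which the files give no position, was 0.21, 0.39 and 0.39 against -1.53, -2.40 and -1.46 (change 2.13, SE 0.27, adjusted p = 0.0563). D17H6S56E-5, on chromosome 17 within the stretch of the calls, had a change of 1.94 (SE 0.33, adjusted p = 0.086), and Igkv14-111, a kappa variable segment, one of -2.96 (SE 0.39, adjusted p = 0.0565). The groups did not overlap for any of these genes.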

How the data were processed

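For the 12 arrays, each with RNA of 1 heart or kidney sample, the authors deposited the scanner output with a Cy3 intensity per spot (Agilent Feature Extraction 9.5.3.1, with probe positions on mm7, per the file headers; 9.1 in the submitters' processing notes). The authors also deposited a table of log2 values for the same arrays. Each of its kidney columns correlates at 1 (rounded) with the scanner values of the other genotype's array of the same letter, and at -0.43 to -0.18 with those of its own name, so only the scanner files were used. Its scale is log2, its centring is not stated, and its column medians run from -0.17 to 0.20.

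Processed intensities were set on the log2 scale to the 75th percentile of each array. Control spots were left out, as were spots marked as non-uniform or outliers, which removed KO kidney a from 116 genes. A gene was tested when all 3 arrays of either genotype read its probe well above background, with the brightest probe standing for the gene. limma 3.58.1 in R 4.3.3 compared the genotypes on the 6 kidney arrays, with Benjamini-Hochberg adjustment over 17228 genes and a threshold of 0.05. A fit on 12 arrays gave the kidney effect minus the heart effect. The steps were tested on simulated data. With 3 arrays against 3, an exact permutation test cannot go below 0.10. Nothing in the labels says more of the replicates than their letters and mice, so p-values measure the spread between these samples.

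The members and lists were chosen with earlier results of these data known. Genes were named from the markers, the called genes with a symbol, the largest changes at an adjusted p under 0.10 and, per list, the largest changes without overlap; the genes that set single arrays apart, the plasma and B cell genes and Csf1r were chosen after their values were seen. A few genes, among them the called gene with the smallest adjusted p and the largest change, are not reported here. Alternatives covered scaling, background, dim and marked spots, probe averaging, slide, replicate letter, all 12 arrays in 1 fit, and each array left out.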

Additional observations from a re-analysis of the deposited data

Results flagged for a closer look

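The genotype effect differed between kidney and heart, by limma's test of the difference on 12 arrays, for 14 of the genes named. Most were immunoglobulin transcripts that were lower in knockout kidney and higher in knockout heart. Lymphocyte genes were also higher in knockout heart, and their part in these differences was not tested. The knockout and wild type hearts lay on separate slides, so in heart genotype and slide cannot be told apart. The kidney change minus the heart change was -6.68 for AB069910 (adjusted p = 0.0015), -6.69 for ENSMUST00000084862 (adjusted p = 0.00207), -7.10 for BC108385 (adjusted p = 0.00498), -6.69 for AY895789 (adjusted p = 0.00589) and -6.06 for AF210281 (adjusted p = 0.00892). It was -7.72 for ENSMUST00000032040 (adjusted p = 0.00962), -5.50 for Igkv2-116 (adjusted p = 0.0151), -5.08 for NAP100137-001 (adjusted p = 0.019) and -7.0 for L18942 (adjusted p = 0.0198). AF240166, which the files do not describe as immunoglobulin, had a difference of -7.08 (adjusted p = 0.00191).

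The plasma cell genes Pou2af1 and Mzb1 had differences of -3.85 (adjusted p = 0.0243) and -3.86 (adjusted p = 0.0388). Jchain and Tnfrsf13b did not pass this test (adjusted p = 0.0938 and 0.0888, limma). Tnfrsf17 did not either (adjusted p = 0.399, limma), and its change in heart was also negative (-0.71). Apom had a change of 1.17 in kidney and 4.03 in heart (difference -2.85, adjusted p = 0.00191). It was -3.75, -3.23 and -3.37 on the knockout hearts and between -7.54 and -7.39 on the wild type hearts. Genes of liver were higher on the same knockout hearts, with changes there of 3.57 for Alb, 3.99 for Apoc3 and 4.24 for F2, and their part in the difference was not tested. The probe A_52_P981179 had a change of 1.36 in kidney and -0.26 in heart (difference 1.61, adjusted p = 0.00667).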

How the results depend on the processing

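The number of genes called in kidney was 28 (5 higher, 23 lower). It was 104 with median scaling (28 and 76), 63 with normexp background (57 lower), 4 with no filter on dim probes (1 and 3), 11 with marked spots kept (3 and 8) and 50 with the mean of all probes (11 and 39). It was 289 with the slide as a block, which leaves the arrays of 1 slide (145 and 144), 77 with all 12 arrays in 1 fit (41 and 36), 161 with the slide as a random block (42 and 119, chosen after seeing the data) and 163 at an adjusted p under 0.10 (41 and 122). Leaving out 1 array gave 1 to 121 calls, 0 to 33 higher and 1 to 88 lower. The share of higher calls was 17.9%, against 50.2% within 1 slide, 53.2% with 12 arrays and 26.9% with median scaling. With no filter on dim probes, 3 of the 28 genes were called. All 28 genes kept their sign in every setting where they were tested. Their groups did not overlap, so leaving out arrays could not turn the sign. The replicate block gave 2 calls (1 and 1), with Slc29a1 at -2.85 no longer past the threshold and 0 immunoglobulin genes called. Deviations of same-lettered kidneys correlated at 0.103, -0.011 and -0.147, and those of other letters at -0.207 to 0.166. With 3 arrays of each genotype these values cannot tell whether the letters pair the samples. The cause of these changes was not tested.

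Immunoglobulin genes called, 8 of 74, became 32 with median scaling, 22 with normexp, 0 with no filter, 1 with marked spots kept, 18 with the mean of probes, 34 within 1 slide, 4 with 12 arrays, 32 with the random block and 0 to 34 with 1 array left out, while 72 to 74 were lower, or 57 where every kidney array had to be above background, which tests fewer genes. Genes without overlap, 3699, became 9455 within 1 slide and 4587 to 6988 with 1 array left out. Genes whose effect differed between kidney and heart, 109, became 172 with median scaling, 49 with normexp and 30 to 1141 with 1 array left out (1141 without KO heart c).

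Changes near 0 turned their sign. Adora1 was -0.065 within 1 slide and -0.0095 to 0.40 with 1 array left out. Adora2a was 0.041 with the mean of probes, 0.090 within 1 slide and -0.18 to 0.033 with 1 array left out, and H2-Ab1 was 0.096, 0.11 and -0.44 to 0.12 in the same settings. With 1 array left out Umod ran from -0.33 to 0.024, Slc34a1 from -0.31 to 0.052 and Slc29a1 from -2.95 to -2.77, with the call lost without WT kidney a (adjusted p = 0.0712) or c (adjusted p = 0.07). In the deposited value table under its own column names, Slc29a1 was 2.86 higher in knockout.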
